A study of Mus musculus with 50 samples.

Results

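The data describe 9 genes that are read as markers of the endothelium, the cell layer that lines blood vessels, in mammary gland (MG) tumors of mice: Pecam1, Cdh5, Esam, Emcn, Tie1, Tek, Kdr, Flt1 and Vwf. They were taken by gene name from a table of 37701 genes, and all 9 were present once and passed the filter on low values that 16733 genes passed. RNA of 50 tumors was sequenced, 10 each from mice that had been given vehicle, insulin, glargine, X10 or IGF1. All mice were females of the p53R270H/+WAPCre strain, aged 8 weeks at the start, in which Cre driven by the promoter of whey acidic protein turns on a mutant p53 allele in mammary epithelium, so the endothelium of the host is not the compartment that the promoter targets. They received a subcutaneous injection every other day until a tumor had formed, and the tumor was taken at 1 cm3, 24 h after the last injection. Glargine and X10 are analogues of insulin with an altered amino acid sequence, and IGF1 is the natural ligand of the IGF1 receptor. The vehicle tumors carry the title untreated in the sample labels. The authors had picked EMT-like tumors with a latency close to the median of their group, so the 50 tumors are a selection and not all that formed.

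Blood vessels grow into a tumor by signals that its cells send out. The ligand VEGF-A, made in larger amounts when oxygen is short, binds the receptor tyrosine kinases VEGFR2 (gene Kdr), which carries most of the growth signal, and VEGFR1 (gene Flt1), which binds more tightly, signals weakly and also exists as a soluble form that holds ligand back. A second receptor family, TIE2 (gene Tek) with its partner TIE1 (gene Tie1), reads the angiopoietins and keeps vessels quiet or lets them loosen. The remaining genes encode proteins of the endothelial surface and junctions or a stored clotting protein.

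The promoters of 5 of the 9 genes (Emcn, Tek, Tie1, Kdr and Flt1) were found in the RefSeq table used here, each as 300 bases from 250 bases before to 50 bases after the start of the gene in RefSeq, on GRCm38.p6. The gene coordinates given below are those of GENCODE M21, in which Tie1 starts further upstream, so most of the window of Tie1 lies inside that longer gene model. The 4 receptor promoters are shown because the receptor genes do not all run together in the tumors below. Capitals mark the letters GGAA or TTCC, which are the core that ETS factors bind read on either strand, and ETS factors such as Erg and Fli1 are known regulators of endothelial genes. The sequences read 5′ to 3′ in the direction of the gene.
Kdr, chr5:75978406-75978705, minus strand: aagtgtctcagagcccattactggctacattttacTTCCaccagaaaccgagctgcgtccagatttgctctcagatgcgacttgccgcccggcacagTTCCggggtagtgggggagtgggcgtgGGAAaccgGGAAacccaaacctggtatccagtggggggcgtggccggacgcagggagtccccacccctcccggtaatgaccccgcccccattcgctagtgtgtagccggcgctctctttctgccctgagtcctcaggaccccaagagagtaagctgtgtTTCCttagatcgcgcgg
Flt1, chr5:147725962-147726261, minus strand: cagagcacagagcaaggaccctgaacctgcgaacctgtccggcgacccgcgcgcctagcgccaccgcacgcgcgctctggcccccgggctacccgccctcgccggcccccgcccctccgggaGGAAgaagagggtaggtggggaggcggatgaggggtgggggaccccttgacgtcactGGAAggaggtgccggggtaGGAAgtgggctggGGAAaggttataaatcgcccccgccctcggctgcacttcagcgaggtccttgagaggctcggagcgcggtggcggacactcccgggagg
Tek, chr4:94739039-94739338, plus strand: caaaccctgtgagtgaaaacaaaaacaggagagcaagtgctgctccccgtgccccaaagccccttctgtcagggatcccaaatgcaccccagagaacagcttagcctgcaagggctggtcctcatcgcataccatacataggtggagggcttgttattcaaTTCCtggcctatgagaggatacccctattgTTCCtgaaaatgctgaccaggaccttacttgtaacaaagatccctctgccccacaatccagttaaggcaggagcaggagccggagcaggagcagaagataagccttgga
Tie1, chr4:118489800-118490099, minus strand: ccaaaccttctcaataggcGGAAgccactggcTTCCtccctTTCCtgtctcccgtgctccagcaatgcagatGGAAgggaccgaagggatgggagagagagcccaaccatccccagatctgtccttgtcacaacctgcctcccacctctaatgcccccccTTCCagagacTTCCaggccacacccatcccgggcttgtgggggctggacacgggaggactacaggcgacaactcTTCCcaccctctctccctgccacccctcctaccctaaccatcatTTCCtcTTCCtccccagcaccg
The core occurred 5 times in the Kdr promoter, 4 times in that of Flt1, 2 times in that of Tek and 9 times in that of Tie1, and 6 times in the promoter of Emcn, which is not printed. Among the 32851 promoters listed there, 96.0% held at least 1 such core, with a median of 3, and 28.6% held at least 5. The core bound by hypoxia inducible factors, searched as ACGTG or GCGTG on either strand (CACGT or CACGC read backwards), was found at least once in 43.8% of all promoters. It occurred 2 times in the promoter of Kdr, 1 time each in those of Flt1 and Emcn and 0 times in those of Tek and Tie1. A match is a run of letters and not a bound site, and its lack says nothing of sequence outside the window.

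In the tumors all 9 genes were read with depth. The gene with the fewest reads was Tek, with 141 reads in the lowest tumor and a median of 553, and Vwf had a median of 700 reads, whereas Cdh5 had a median of 4634 reads. Libraries held 26.5 to 51.9 M reads, as recovered from the deposited values, with group medians from 35.4 M reads in X10 to 43.9 M reads in vehicle tumors. The values are RPKM, reads per kilobase of gene and per M reads of the library, so the length that the authors used for each gene enters every level. That length equalled the median length of the transcripts of a gene in 61.6% of 4644 genes with several transcripts and a length of 500 to 1000 bp, the range that was examined. It did so for Pecam1, Tek and Tie1, and lay above that median for the other 6 genes, most of all for Cdh5 with 3986 bp against 2170.5 bp. For Esam it was 627 bp where the longest coding transcript has 1865 bp, for Flt1 2049 bp against 6895 bp, and for Vwf 2398.5 bp against 8834 bp. Levels are therefore compared between genes per kilobase of the longest coding transcript, a scale that changes no comparison between tumors.

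On that scale Cdh5 (VE-cadherin, the adhesion protein of endothelial junctions, chr8:104101625-104144511 of GRCm38) had the highest level of the 9, with 30.5 ± 6.60 (SD, n = 50 tumors). Pecam1 (CD31, a surface adhesion protein, chr11:106654217-106750628) followed with a level of 27.4 ± 6.64, and Cdh5 was above it in 41 of 50 tumors. Esam (an adhesion molecule of tight junctions, chr9:37528078-37538319) came next with a level of 18.7 ± 4.54. By their means the 3 junction and adhesion genes formed the upper part of the order. Pecam1 was above Esam in 49 tumors and Esam above Emcn in 50. These counts compare neighbours only, and the 3 genes were not set against Flt1 or Kdr tumor by tumor. Emcn (endomucin, a sialomucin of veins and capillaries, chr3:137341067-137432185) had a level of 11.6 ± 2.81 and Tie1 (chr4:118471191-118490061) one of 10.1 ± 2.98, with Emcn above Tie1 in 40 tumors. Flt1 (chr5:147561604-147726011) stood at a level of 8.64 ± 3.84 and Kdr (chr5:75932827-75978458) at 7.13 ± 2.42. The neighbours Tie1 and Flt1, and Flt1 and Kdr, did not keep an order, since the first was above the second in 32 and in 27 of 50 tumors. Tek (chr4:94739289-94874976) had a level of 3.34 ± 1.47. Vwf (von Willebrand factor, which binds platelets at damaged vessels, chr6:125546774-125686679) had one of 2.08 ± 1.09. The deposited RPKM puts Esam first, at 55.6 ± 13.5, and lifts Flt1 to 29.1 ± 12.9, and these are the values used from here on. Reads of the soluble and the full-length form of Flt1 are summed in 1 value and cannot be told apart.

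**Figure D1:**
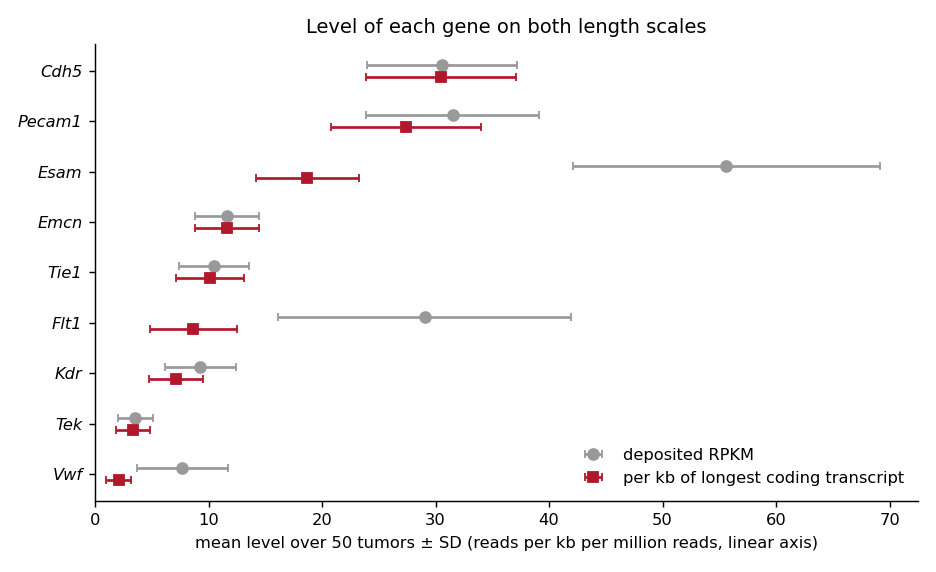
Mean level of the 9 genes over 50 tumors on a linear axis, as deposited RPKM (grey circles) and per kilobase of the longest coding transcript (red squares), with bars for the SD over tumors. Cdh5, Emcn, Tie1 and Tek lie almost at the same place on both scales, whereas Esam falls from 55.6 to 18.7 and Flt1 from 29.1 to 8.64.

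The spread over tumors differed more between the genes than their place in the order would show. Cdh5 ranged 2.67-fold from its lowest to its highest tumor, with a coefficient of variation of 21.7%, and Emcn 2.96-fold. Kdr ranged 6.56-fold, Flt1 6.87-fold, Tek 8.50-fold and Vwf 10.0-fold, with a coefficient of variation of 52.3% for Vwf. The receptors that read VEGF-A and the angiopoietins and the clotting protein thus varied by more than the adhesion genes. In bulk RNA, a lower level through fewer endothelial cells and one through less RNA per cell cannot be told apart.

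Tumors are named by treatment and mouse number. Tumor vehicle_161 had the lowest Pecam1 of all tumors, at 15.6 RPKM, and the lowest Esam, at 27.4 RPKM. Tumor X10_111 had the lowest Cdh5, at 17.2 RPKM, and shared the lowest Tie1, at 4.70 RPKM, with vehicle_161. The same tumor had the highest Flt1 of all 50, at 84.0 RPKM. Of the 9 genes, 8 were among their 10 lowest tumors in X10_111, and Flt1 alone was among its 10 highest there. At the other end insulin_8 had 7 of the 9 genes among their 10 highest tumors, with the highest level of Cdh5 at 46.0 RPKM, of Kdr at 17.4 RPKM and of Tie1 at 19.7 RPKM. It also had the highest level of Ptprc, the pan-leukocyte gene, at 51.3 RPKM, of the T cell gene Cd3e at 24.5 RPKM and of Ccl21a, a chemokine of lymphatic endothelium and lymph nodes, at 129 RPKM, where the medians over the 50 tumors were 20.0, 1.97 and 0.31 RPKM. The part of these cells in its endothelial values was not tested.

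Correlation across the 50 tumors, computed on log2(RPKM + 0.5), split the genes in a way that their common use as markers does not show. These correlations are descriptions, since all points come from libraries in which each gene shares the depth and tissue makeup of the tumor. Pecam1, Cdh5, Tie1, Emcn and Esam rose and fell together, with Pearson's r from 0.573 to 0.815 in their 10 pairs and the highest value for Pecam1 with Tie1. Kdr and Tek formed a pair with r = 0.795. Each was also related to Cdh5 (r = 0.587 and 0.578), Pecam1 (0.516 and 0.569) and Tie1 (0.481 and 0.583). They were less related to Emcn (r = 0.182 and 0.282) and Esam (0.130 and 0.227). Both values with Cdh5 and that of Tek with Tie1 were above 0.573, the lowest of the 10 pairs. Kdr and Tek were thus set apart from Emcn and Esam more than from Cdh5, Pecam1 and Tie1. Vwf followed none of the others closely, with r from 0.0165 to 0.294. Flt1 stood apart, with r from -0.357 with Kdr (rho = -0.297) to 0.177 with Emcn. The genes of the 2 main VEGF-A receptors thus tended, weakly, to run in opposite directions across tumors. With Pecam1, Cdh5 and Esam the r of Flt1 was below 0 (-0.0832, -0.109 and -0.0271) but rho was above 0 (0.107, 0.0680 and 0.0855). The median over the 36 pairs was 0.288 with a jackknife SE over tumors of 0.123, and after centring within treatment groups 34 of the 36 pairs kept their sign.

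**Figure D2:**
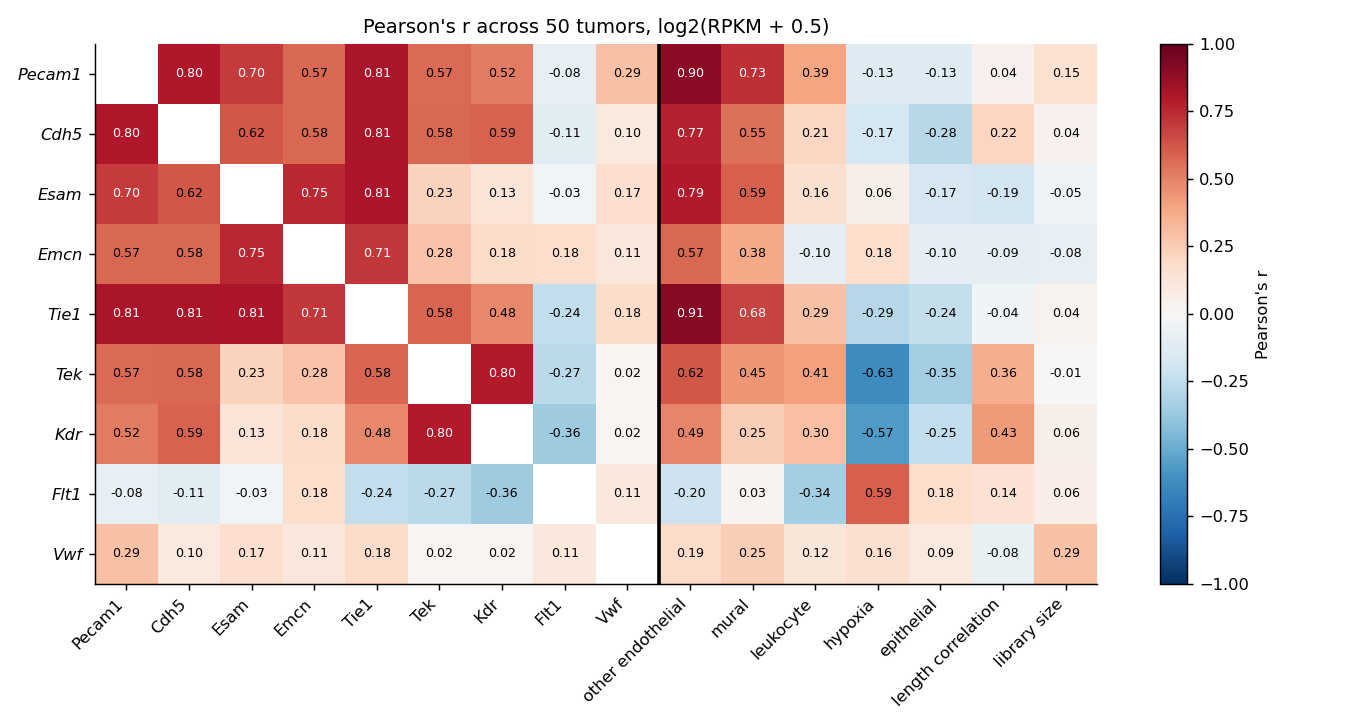
Pearson's r across 50 tumors between the 9 genes (left of the line) and between each gene and the mean z-score of marker lists, the length correlation of each tumor and library size (right of the line), with red for positive and blue for negative values. The block of Pecam1, Cdh5, Esam, Emcn and Tie1 is red throughout, Tek and Kdr form a pair at 0.80, and Flt1 is red with hypoxia genes (0.59) where Tek and Kdr are blue (-0.63 and -0.57).

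Of the 10 genes nearest to the mean z-score of the 9, the list of other endothelial genes described below held 5 (Mmrn2, Erg, Rasip1, Myct1 and Arhgef15). Of all other tested genes, Mmrn2 (r = 0.839), the ETS factor Erg (r = 0.815) and Rasip1 (r = 0.797), which acts in forming the vessel lumen, were closest, followed by Ldb2, Myct1, Nova2, Pcdh12, Arhgef15, Gimap6 and Gimap5, down to r = 0.751. The lowest values were those of Dos (r = -0.543), of the growth regulator Myc (r = -0.533) and of Nlgn2 (r = -0.533). The score shares its own 9 genes with each member, so for single members the nearest genes are of more use. Tie1 was closest to Rasip1 (r = 0.916) and Myct1 (r = 0.862), Pecam1 to Mmrn2 (r = 0.839) and Myct1 (r = 0.816), Cdh5 to the protocadherin Pcdh12 (r = 0.855) and Erg (r = 0.837). Esam was closest to Ushbp1 (r = 0.826) and Robo4 (r = 0.803), and Emcn to Nos3, the endothelial nitric oxide synthase (r = 0.740), and Nova2 (r = 0.668). Tek was closest to Cyyr1 (r = 0.903) and Aplnr, the apelin receptor (r = 0.838), and Kdr to Hecw2 (r = 0.789) and the same Cyyr1 (r = 0.781). Vwf had only weak neighbours, Ackr2 (r = 0.539) and Galns (r = 0.495).

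The nearest of all tested genes to Flt1 was Vegfa itself, which encodes the ligand of the receptor (r = 0.693). The second was Pdk1, a kinase that slows the use of pyruvate in mitochondria and is induced under low oxygen (r = 0.674). Flt1 was positively related to 10 of 10 genes of a hypoxia list (Car9, Slc2a1, Pgk1, Ndrg1, Adm, Bnip3, Egln3, Ankrd37, Pdk1 and Ldha), with a median r of 0.514. Kdr was negatively related to 10 of 10, with a median of -0.504, and Tek to 10 of 10, with a median of -0.563. Tie1 and Cdh5 were also negative with all 10, at medians of -0.244 and -0.116, and Pecam1 was negative with 9 of 10 at a median of -0.101, whereas Emcn, Esam and Vwf were mostly positive at medians of 0.173, 0.0548 and 0.140. Thus Flt1 was high and Kdr and Tek were low in the tumors in which genes of the response to low oxygen were high.

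Other quantities moved with these genes. Across tumors, the mean z-score of mural cell markers, the cells that wrap vessels, had r = 0.732 with Pecam1 and r = 0.678 with Tie1, but only 0.248 with Kdr and 0.0304 with Flt1. That of leukocyte markers had r = 0.410 with Tek, 0.395 with Pecam1, 0.303 with Kdr and -0.339 with Flt1, that of fibroblast markers 0.389 with Tek and 0.334 with Pecam1, and that of epithelial markers -0.347 with Tek, -0.247 with Kdr and 0.175 with Flt1. That of adipocyte markers had r = 0.454 with Tek and 0.318 with Kdr, and that of lymphatic endothelial markers 0.443 with both, 0.552 with Tie1 and 0.534 with Pecam1. Platelet markers had r = -0.385 with Kdr and skeletal muscle markers r = 0.410 with Vwf. A technical measure, the correlation over genes between a tumor's values and the length of the transcript, which lay between -0.388 and 0.398, was related to Kdr (r = 0.429) and Tek (r = 0.365) and less to Cdh5 (r = 0.218) and Flt1 (r = 0.141), and for the other 5 genes r lay between -0.191 for Esam and 0.0438 for Pecam1. With library size r lay between -0.0843 for Emcn and 0.291 for Vwf. The part of these cell types in the relations was not tested, and values with the length measure regressed out stand beside the relations below.

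To relate the receptors to their ligands, 8 receptor-ligand pairs were tested across the 50 tumors, with permutation p-values from 100000 resamples adjusted over the 8. Flt1 and Vegfa had Pearson's r = 0.693 (permutation test, two-sided, p = 1e-05, which is the smallest that it can give, adjusted p = 4e-05) and Spearman's rho = 0.687 (permutation p = 1e-05, adjusted p = 4e-05). The relation was positive in all 5 treatment groups of 10 tumors, from r = 0.366 in glargine to 0.898 in insulin tumors, and r was 0.704 with the length measure regressed out. Without the 2 tumors farthest from the median of Vegfa r was 0.678. Vegfa ranged from 56.2 RPKM in insulin_15, which also had the lowest Flt1 at 12.2 RPKM, to 623 RPKM in X10_100.

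Flt1 was related in the same way to Pgf, which encodes placental growth factor, a ligand that binds VEGFR1 and not VEGFR2. Here r was 0.650 (permutation p = 1e-05, adjusted p = 4e-05) and rho 0.657 (permutation p = 1e-05, adjusted p = 4e-05), with r from 0.536 in vehicle to 0.807 in IGF1 tumors and 0.633 without the 2 tumors farthest from the median. With the length measure regressed out r was 0.737. For Vegfb, the third ligand of VEGFR1, r was only 0.0835 (permutation p = 0.563, adjusted p = 0.577, rho = 0.0310, permutation p = 0.830, adjusted p = 0.909), and it turned to -0.114 without the 2 farthest tumors and was 0.184 with the length measure regressed out.

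Kdr fell with rising Vegfa. Pearson's r was -0.397 (permutation p = 0.00426, adjusted p = 0.0114) and rho -0.379 (permutation p = 0.00689, adjusted p = 0.0184), with a negative r in all 5 groups, from -0.562 in glargine to -0.177 in vehicle tumors. It was -0.381 without the 2 farthest tumors and -0.426 with the length measure regressed out. With Vegfc, whose product also binds VEGFR2, r was 0.256 (permutation p = 0.0716, adjusted p = 0.114, rho = 0.194, permutation p = 0.173, adjusted p = 0.231), and 0.267 without the 2 farthest tumors and 0.272 with the length measure regressed out.

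**Figure D3:**
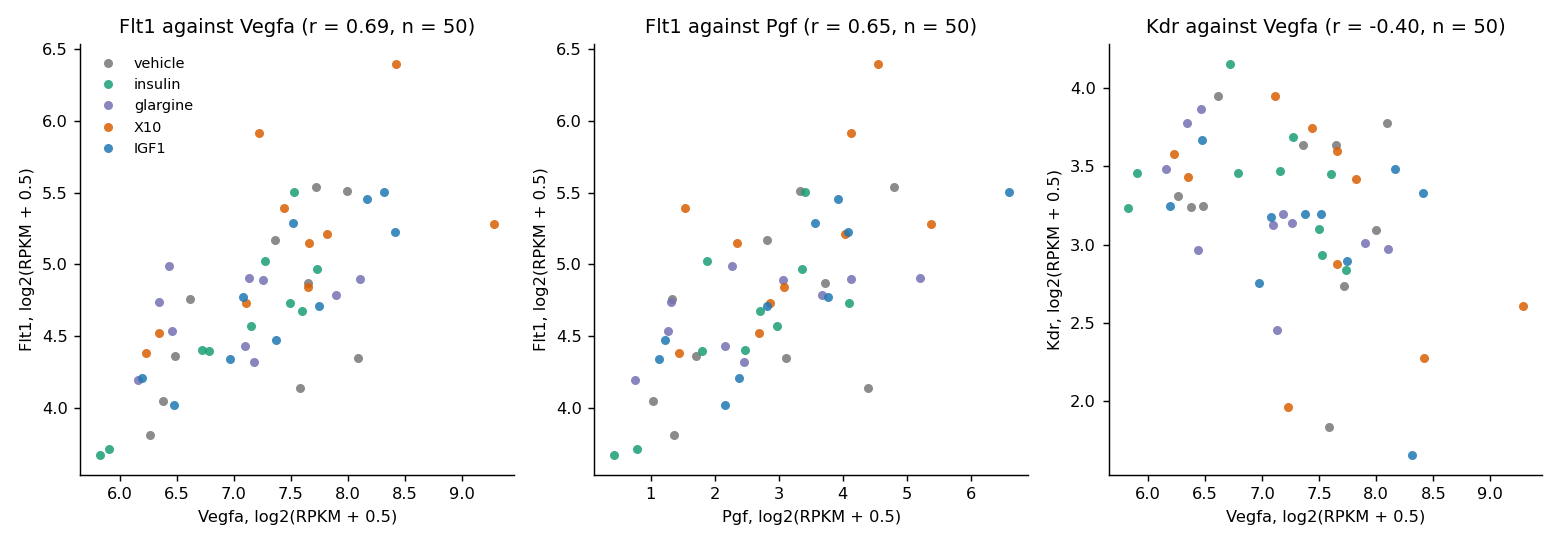
Flt1 against Vegfa, Flt1 against Pgf and Kdr against Vegfa in 50 tumors, all as log2(RPKM + 0.5), with 1 point per tumor colored by treatment. Flt1 rises with both ligands and Kdr falls with Vegfa, with tumors of all 5 treatments along each trend.

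Of the TIE receptors, Tek had r = 0.336 with Angpt1, the ligand that activates TIE2 (permutation p = 0.0175, adjusted p = 0.035). This relation did not keep the threshold by rank (rho = 0.294, permutation p = 0.0380, adjusted p = 0.0761), centred within groups (r = 0.303, permutation p = 0.0322, adjusted p = 0.0645) or with the length measure regressed out (r = 0.288, permutation test, adjusted p = 0.0841), and was stronger without the 2 farthest tumors (r = 0.475, permutation test, adjusted p = 0.00173). It ran from -0.181 in IGF1 to 0.645 in glargine tumors. For Tek with Angpt2, which mostly blocks TIE2, r was -0.208 (permutation p = 0.149, adjusted p = 0.198, rho = -0.213, permutation p = 0.138, adjusted p = 0.220), and -0.198 without the 2 farthest tumors and -0.261 with the length measure regressed out. Tie1 with Angpt1 gave r = -0.0811 (permutation p = 0.577, adjusted p = 0.577, rho = -0.0162, permutation p = 0.909, adjusted p = 0.909), which turned to 0.0532 without the 2 farthest tumors and was -0.0746 with the length measure regressed out.

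The study asked how chronic exposure to each compound changes the tumors that form. For the 9 genes, limma on log2(RPKM + 0.5) with Benjamini-Hochberg adjustment over 16733 genes called 0 of 9 in each comparison with vehicle. Of all tested genes it called 0% for insulin and for glargine, 0.0657% for X10 and 0.00598% for IGF1. At an unadjusted p under 0.05 there were 0, 0, 1 and 1 of the 9, against 1865, 1043, 1841 and 1479 of all tested genes. The background of calls was thus itself near 0, and a count of 0 among 9 genes says little about them. The same vehicle tumors serve in all 4 comparisons. Fold changes are on the log2(RPKM + 0.5) scale, which lowers those of genes near the pseudocount such as Tek.

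Flt1 had the largest difference. It ranged from 13.5 to 46.0 RPKM in vehicle tumors with a median of 23.3, and from 20.3 to 84.0 RPKM with a median of 35.8 in X10 tumors. Of the 10 X10 tumors 7 were above the vehicle mean of 26.9 RPKM, and the ranges overlapped from 20.3 to 46.0 RPKM. The log2 fold change was 0.53 (SE 0.24), with limma's p = 0.0302 and an adjusted p of 0.404. Without X10_111, the tumor with 84.0 RPKM, it was 0.39, at an adjusted p of 0.601. Flt1 ranged from 12.2 to 44.8 RPKM in insulin, 17.8 to 31.3 in glargine and 15.7 to 44.8 in IGF1 tumors, with medians of 24.2, 26.7 and 26.3 RPKM, and the log2 fold changes from vehicle were -0.09, 0.01 and 0.14. Between X10 and IGF1 tumors together and the other 30, the grouping by strength of IGF1 receptor activation, the log2 fold change of Flt1 was 0.36 (SE 0.15) with an adjusted p of 0.357, where 0.155% of all tested genes and 0 of the 9 were called. The hypoxia list moved in the same direction beside it, with 10 of 10 genes positive for X10 against vehicle at a median of 0.44 and 0 called, and its summed level ran from 896 to 2528 RPKM in vehicle and from 1095 to 4578 RPKM in X10 tumors. Other lists also moved for X10 against vehicle. There 8 of 8 leukocyte genes were positive at a median of 0.24 and 6 of 7 skeletal muscle genes at 0.51, whereas 5 of 5 erythroid genes were negative at -0.44. In each of these 0 were called. The part of these lists in the difference of Flt1 was not tested.

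Kdr did not share that shift. Vehicle tumors had 3.07 to 15.0 RPKM with a median of 9.21, X10 tumors 3.39 to 15.0 RPKM with a median of 10.2, and IGF1 tumors 2.64 to 12.2 RPKM with a median of 8.66. The groups covered almost the same range, and the log2 fold changes from vehicle were -0.19 for IGF1, -0.10 for X10, -0.05 for glargine and 0.13 for insulin, each with an SE of 0.24. The value for IGF1 was -0.03 without IGF1_160 and -0.34 without vehicle_174. The 95% interval for X10 ran from -0.58 to 0.37.

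Of the TIE receptors, Tek ran from 0.98 to 6.46 RPKM in vehicle tumors with a median of 2.73, and from 2.69 to 5.53 RPKM in insulin tumors with a median of 3.66, so the insulin tumors lay inside the vehicle range. The log2 fold changes of Tek from vehicle were -0.01 for IGF1, 0.22 for X10, 0.31 for glargine and 0.35 for insulin. They had an SE of 0.26 and adjusted p from 0.643 to 0.999 in limma. With 1 tumor left out they ran from -0.143 to 0.129 for IGF1 and from 0.085 to 0.351 for X10. For glargine they ran from 0.177 to 0.425 and for insulin from 0.215 to 0.463. Tie1 ran from 4.70 to 14.0 RPKM in vehicle tumors, and its log2 fold changes were 0.19, 0.08, 0.02 and 0.15 for insulin, glargine, X10 and IGF1, with an SE of 0.19.

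Among the adhesion genes Esam had the largest difference. Vehicle tumors had 27.4 to 63.7 RPKM with a median of 52.8, and IGF1 tumors 45.3 to 84.1 RPKM with a median of 59.3. Of the IGF1 tumors 7 of 10 were above the vehicle mean of 50.6 RPKM, and the log2 fold change was 0.33 (SE 0.16, limma p = 0.0427, adjusted p = 0.543). Epithelial markers differed between the same tumors. Of the 8 genes of that list 8 were lower in IGF1 tumors, at a median log2 fold change of -1.86 with 0 called. Their summed level ran from 13.0 to 6426 RPKM in vehicle tumors with a median of 372. In IGF1 tumors it ran from 12.2 to 697 RPKM with a median of 144. With the score of this list as a covariate, a setting added once the data had been seen, the log2 fold change of Esam was 0.30. The limma adjusted p was then 0.958. The fold change thus moved little from 0.33, and the adjusted p also depends on all other genes tested in that fit.

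Pecam1 was 28.1 ± 5.99 RPKM (SD, n = 10) in vehicle tumors and between 31.4 and 32.8 RPKM on average in the 4 treated groups. The log2 fold changes were 0.22 for IGF1, 0.12 for X10, 0.23 for glargine and 0.22 for insulin with an SE of 0.15, and 9 of 10 glargine tumors were above the vehicle mean. The value for X10 was 0.02 without X10_105 and 0.21 without X10_111. Cdh5 was 28.9 ± 6.41 RPKM in vehicle tumors and differed on the log2 scale by 0.14 for IGF1, -0.04 for X10, 0.11 for glargine and 0.18 for insulin, with an SE of 0.14. Emcn was 11.3 ± 2.85 RPKM in vehicle tumors and differed by 0.09 for IGF1, 0.16 for X10, -0.01 for glargine and -0.09 for insulin, with an SE of 0.16.

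Vwf was the least certain of the 9. It ran from 2.10 to 13.9 RPKM in vehicle tumors and from 3.51 to 16.1 RPKM in insulin tumors, with medians of 7.42 and 9.44, and the log2 fold change of 0.43 had an SE of 0.31 and a limma adjusted p of 0.632. In X10 tumors the median was 5.07 RPKM and the highest value, 19.1 RPKM in X10_105, was the highest of all 50. The log2 fold change of Vwf was 0.15 for glargine, -0.08 for X10 and -0.05 for IGF1. Each of these reversed in direction with some covariate in the model, as listed in the section on processing.

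**Figure D4:**
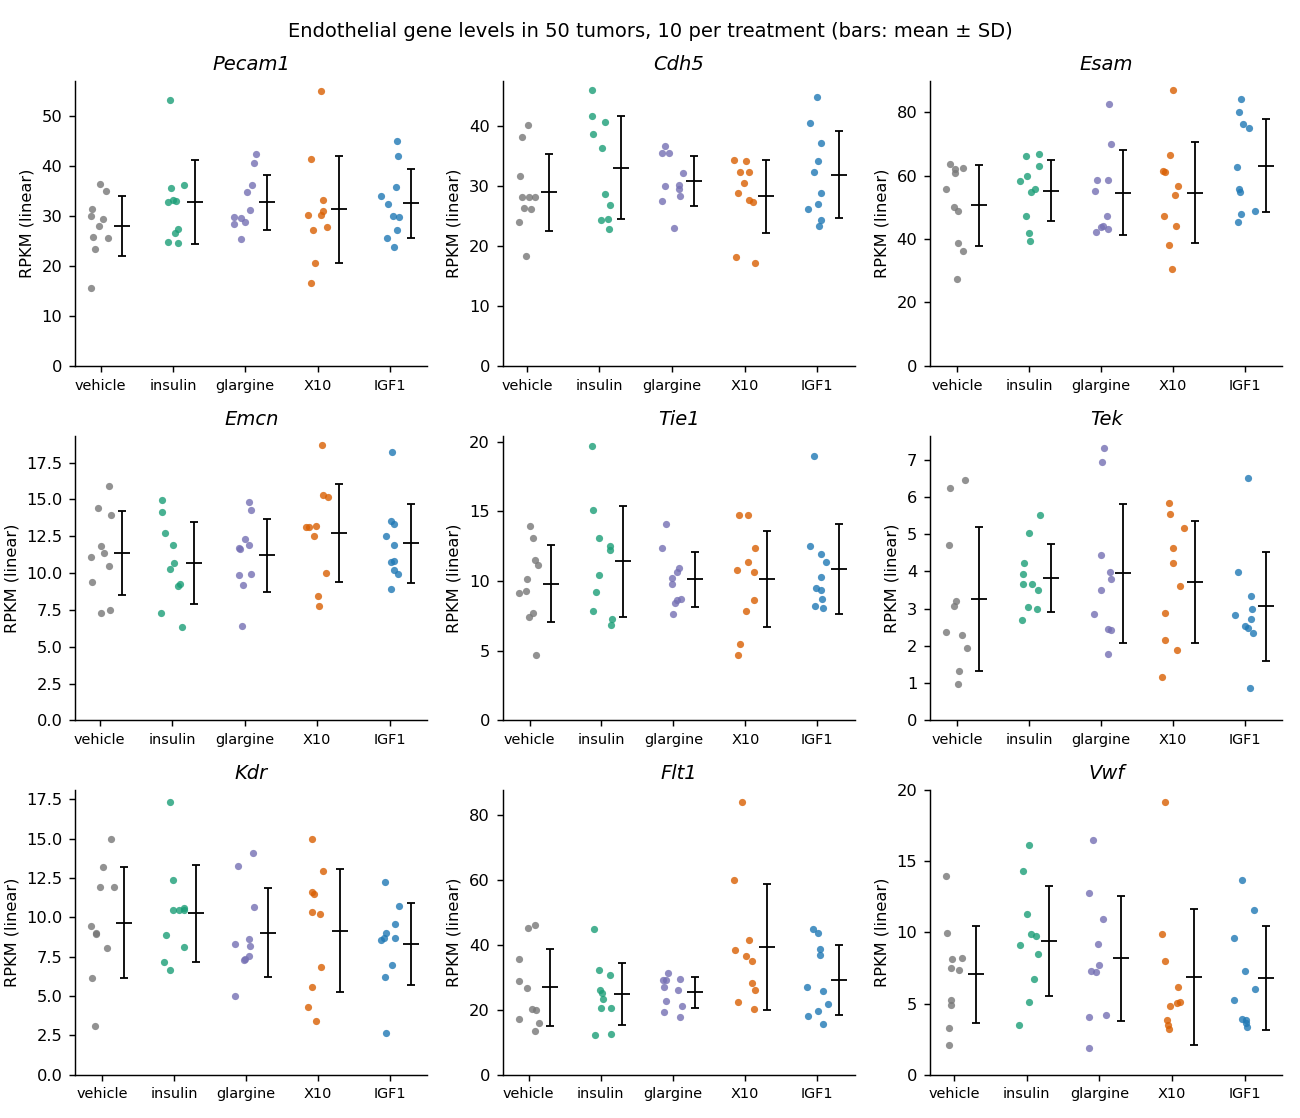
RPKM of each of the 9 genes in the 50 tumors on linear axes that start at 0, with 1 point per tumor and the mean ± SD of the 10 tumors of a treatment beside it. The groups overlap in every panel, and X10 tumors reach the highest values for Flt1, Pecam1, Esam, Emcn and Vwf while also holding the lowest values for Cdh5 and Tie1.

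**Figure D5:**
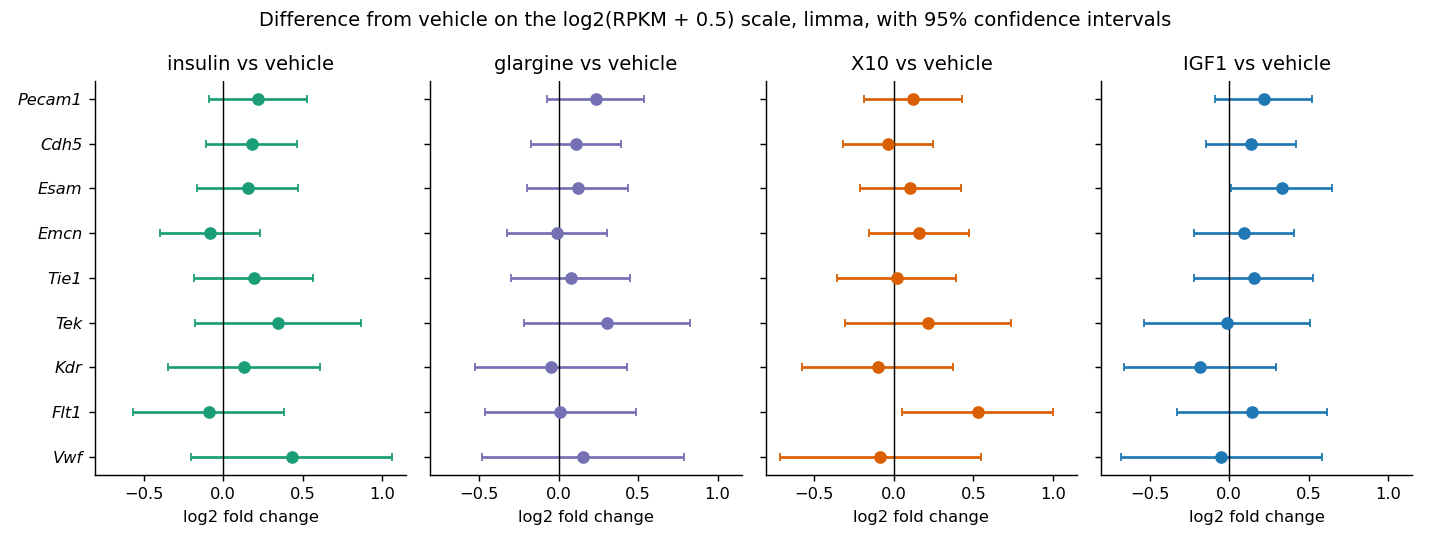
Log2 fold change of each gene from vehicle, on the log2(RPKM + 0.5) scale with 95% confidence intervals from limma, 10 against 10 tumors in each panel. Of the 36 intervals those of Flt1 for X10 and of Esam for IGF1 do not reach 0, before adjustment.

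In number, 7 of the 9 genes had a positive fold change with insulin and with glargine and 6 with X10 and with IGF1. The median log2 fold changes of the 9, in the order insulin, glargine, X10 and IGF1, were 0.18, 0.11, 0.10 and 0.14, where the medians over all tested genes were 0.03, 0.02, -0.03 and 0.02. These counts share the vehicle tumors, of which vehicle_161, vehicle_162 and vehicle_174 were among the 5 tumors with the lowest mean z-score over the 9 genes. The mean z-score was -0.22 ± 0.74 (SD, n = 10) in vehicle tumors, 0.13 ± 0.66 in insulin, 0.03 ± 0.52 in glargine, 0.01 ± 0.80 in X10 and 0.05 ± 0.53 in IGF1 tumors, so the groups differed by less than their spread. An F test over the 5 groups in the same fit called 0 of the 9, against 0.102% of all tested genes, and the smallest p was 0.0920 for Flt1, with an adjusted p of 0.465.

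The analogues were also set against each other, since they differ from insulin in few residues and were given on the same schedule. Of 3 pairs, glargine against insulin called 0 of 9 genes and 0% of all tested genes, X10 against insulin 0 of 9 and 0.102%, and X10 against glargine 0 of 9 and 1.78%. Flt1 was higher with X10 than with insulin by 0.62 on the log2 scale (SE 0.24, limma p = 0.0118, adjusted p = 0.263), with 8 of 10 X10 tumors above the insulin mean of 24.8 RPKM. Against glargine it was higher by 0.51 (SE 0.24, limma p = 0.0339, adjusted p = 0.362), again with 8 of 10 tumors above the mean of 25.3 RPKM. Without X10_111 these differences were 0.48 and 0.38. Other lists moved between the same tumors. For X10 against insulin 10 of 10 hypoxia genes were positive at a median of 0.52, 7 of 8 epithelial genes at a median over the list of 1.16 and 5 of 6 adipocyte genes at 0.49. In the same comparison 8 of 8 leukocyte genes were negative at -0.30, 6 of 7 fibroblast genes at -0.37 and 10 of 12 mural genes at -0.18. In each of these lists 0 were called. For X10 against glargine 10 of 10 hypoxia genes were positive at 0.32 and 7 of 8 epithelial genes at 0.39, whereas 6 of 6 adipocyte genes were negative at -0.96 and 6 of 7 fibroblast genes at -0.37, with 0 called in each. Their part in the differences of Flt1 was not tested. The largest difference in the other direction was that of Vwf, -0.52 for X10 against insulin with an interval from -1.15 to 0.12. For glargine against insulin the 9 differences lay between -0.28 for Vwf and 0.10 for Flt1. The interval for Flt1 there ran from -0.37 to 0.58.

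The partners of the receptors gave no call either. Of the 8 genes for VEGF ligands and their other receptors (Vegfa, Vegfb, Vegfc, Figf, Pgf, Flt4, Nrp1 and Nrp2) and of the 4 partners of the TIE receptors (Angpt1, Angpt2, Angpt4 and Ptprb) 0 passed in any of the 8 comparisons. Of all tested genes between 0% and 1.78% were called in these, so a count of 0 among so few genes says little about them. Vegfa averaged 164 RPKM in vehicle and 221 RPKM in X10 tumors, a log2 fold change of 0.30 (SE 0.32). The X10 mean was raised by X10_100, at 623 RPKM, where the next X10 tumor, X10_111, had 342 RPKM. Pgf averaged 9.31 RPKM in vehicle and 12.7 RPKM in X10 tumors, a log2 fold change of 0.45 (SE 0.59). The phosphatase gene Ptprb, whose product acts on TIE2, averaged 2.63 RPKM in insulin tumors and was lower in vehicle tumors, with a log2 fold change of 0.51 (SE 0.19, limma p = 0.00927, adjusted p = 0.342). Vegfb was lower in X10 than in glargine tumors, 13.9 against 17.8 RPKM, a log2 fold change of -0.42 (SE 0.19, limma p = 0.0350, adjusted p = 0.369).

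A wider list of 38 other endothelial genes was present in full, and 37 passed the filter. Ecscr, Eng, Cd34 and Notch4, the members of that list with the highest RPKM, had medians over the 50 tumors between 49.4 RPKM for Notch4 and 117 RPKM for Ecscr, and only the adhesion receptor Sele, at 0.33 RPKM, fell under the filter. Of the 37, 0 were called in any comparison, where between 0% and 1.78% of all tested genes were called. Against vehicle 33 were positive for insulin at a median of 0.22, 31 for glargine at 0.16, 21 for X10 at 0.03 and 31 for IGF1 at 0.16. In X10 tumors 28 of the 37 were lower than in insulin tumors, at a median of -0.20, and 28 were lower than in glargine tumors, at a median of -0.11, where the medians over all tested genes were -0.07 and -0.04. At an unadjusted p under 0.05 there were 8 of the 37 for IGF1, 3 for X10, 5 for glargine and 7 for insulin against vehicle, where 8.84%, 11.0%, 6.23% and 11.1% of all tested genes were under it, in the same order. Markers of other cells moved in the same tumors. For insulin against vehicle 8 of 8 leukocyte genes were higher, at a median of 0.58 with 0 called and 5 at an unadjusted p under 0.05, and 8 of 8 epithelial genes were lower, at a median of -0.96 with 0 called. For glargine 6 of 6 adipocyte genes that passed the filter were positive at a median of 0.95, 6 of 7 fibroblast genes at 0.55 and 7 of 8 leukocyte genes at 0.36, and for IGF1 7 of 8 leukocyte genes were positive at 0.28 and 8 of 8 epithelial genes negative at -1.86, with 0 called in each. The summed leukocyte level ran from 483 to 1263 RPKM in vehicle and from 559 to 1704 RPKM in insulin tumors. The part of these cells in the endothelial values was not tested. The smallest adjusted p was 0.196, for Tal1 with insulin, a hematopoietic and endothelial transcription factor that averaged 2.29 RPKM against 1.20 RPKM in vehicle tumors. The mean z-score of this list had r = 0.910 with Tie1 and r = 0.896 with Pecam1 across tumors, 0.492 with Kdr and -0.204 with Flt1.

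Platelet markers were examined because Vwf and Pecam1 are also made by megakaryocytes. Of 9 such genes 4 passed the filter, Pf4, Itga2b, Ppbp and Gp1bb, with means of 62.1, 12.3, 5.45 and 0.82 RPKM. Ppbp reached 109 RPKM in vehicle_174. The others, Gp9, Gp1ba, Gp5, Gp6 and Treml1, averaged between 0.04 and 0.18 RPKM. The mean z-score over the 4 genes that passed had r = 0.0810 with Vwf and r = 0.0135 with Pecam1. Lymphatic endothelium was present unevenly, with Prox1, its defining transcription factor, at a median of 0.20 RPKM and a highest value of 5.46 RPKM in insulin_8, the tumor with the highest mean z-score over the 9 genes.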

How the data were processed

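RNA was measured in 50 tumors, which were grouped by the treatment in the title of each sample. Libraries of polyadenylated RNA had been run on an Ion Proton sequencer. Reads were placed on GRCm38 by TopHat2 (2.0.10), and those left over by Bowtie2, and HTSeq (0.6.1) gave the reads of each gene. The authors deposited RPKM values in 1 table, made with DEXSeq from reads divided by library size and gene length, without a log scale, and whether the HTSeq reads went into it is not stated. The length scale and the library size set every value, and a gene's reads were recovered from the steps of the deposited RPKM values, of which at least 99.97% per tumor came out as whole reads among low values. 

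A gene was tested where its mean RPKM reached 0.5, with limma (3.58.1, R 4.3.3) on log2(RPKM + 0.5) with an intensity trend and all 5 groups in 1 fit, and was called at a Benjamini-Hochberg adjusted p under 0.05. The genes named were the 9 genes, fixed ligand, receptor and marker lists, and the genes nearest to them by Pearson's r. The steps were tested on simulated data. The members, lists and tests were chosen with earlier results of these data known. Correlations used Python 3.11.15 with scipy 1.17.1. Each tumor is from 1 mouse per the labels' numbers, p-values measure the spread between these tumors, and intervals on reads were not needed at 141 reads or more. The labels give no batch, and the sequence sample numbers in them run treatment by treatment, with no statement of what order they mark, so an effect of that order cannot be told apart from treatment. The highest correlation between 2 tumors over all genes was 0.982, and no tumor was counted as a duplicate. Alternatives were other pseudocounts, filters, scalings, covariates, samples in the fit, limma voom on recovered reads, and leaving out each tumor in turn. The authors' own DESeq2 comparisons were not used.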

Additional observations from a re-analysis of the deposited data

Results flagged for a closer look

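Each of the 9 genes was examined in each group of 10 tumors for a highest or lowest tumor whose gap to the next, as a share of the range of the group on the log2(RPKM + 0.5) scale, exceeded Dixon's critical value. This held in 4 of 45 groups, where chance flags about 1 in 20. Pecam1 in vehicle tumors had its lowest value, 15.6 RPKM, in vehicle_161, with a gap of 0.476 of the log2 range. Pecam1 in insulin tumors had its highest value, 53.3 RPKM, in insulin_8, with a gap of 0.503 of the log2 range, where the next tumor had 36.2 RPKM. Kdr in IGF1 tumors had its lowest value, 2.64 RPKM, in IGF1_160, with a gap of 0.545 of the log2 range. Tie1 in IGF1 tumors had its highest value, 18.9 RPKM, in IGF1_158, with a gap of 0.493 of the log2 range, where the next tumor had 12.5 RPKM. On RPKM without log the 4 shares were 0.374, 0.597, 0.375 and 0.594, so both of the highest tumors stayed past the critical value and both of the lowest did not. On that scale Vwf in X10 tumors, with 19.1 RPKM in X10_105 and a gap of 0.582 of the range, and Emcn in IGF1 tumors, with 18.2 RPKM in IGF1_160 and a gap of 0.501, were past it as well.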

How the results depend on the processing

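No member was called in any of the 8 comparisons or the F test under up to 12 alternatives or with any tumor left out, where the smallest adjusted p in limma was 0.205 and, leaving out tumors, 0.187. Of 847 log2 fold changes under these alternatives 820 kept their direction and 27 reversed, all from reported values of at most 0.15 in size. Quantile normalization reversed Cdh5 for X10 against vehicle (0.023), Tek for IGF1 against vehicle (0.0081), Tie1 for X10 and IGF1 against the others (0.043), and Kdr (0.023), Tek (0.011), Tie1 (0.023) and Esam (0.035) for X10 against glargine. Upper quartile scaling reversed Emcn for glargine against vehicle (0.0053), Cdh5 for X10 against vehicle (0.024), Tie1 for X10 and IGF1 against the others (0.012) and Esam for X10 against glargine (0.029). With library size in the model Vwf reversed for X10 (0.24) and for IGF1 (0.051) and Tek for IGF1 (0.0070) against vehicle, and Tie1 for X10 and IGF1 against the others (0.00101). With adipocyte and muscle scores Vwf reversed for glargine (-0.043) and IGF1 (0.041) and Tek for IGF1 (0.10) against vehicle, Tie1 for X10 and IGF1 against the others (0.031), Pecam1 for glargine against insulin (-0.099), and Kdr (0.067), Tek (0.084), Tie1 (0.0091) and Esam (0.027) for X10 against glargine. With the epithelial score, which was added once the data had been seen, Vwf reversed for IGF1 against vehicle (0.071) and Tek for glargine (0.040) and X10 (0.019) against insulin. The cause was not tested.

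Of the 72 log2 fold changes 62 moved by over 1.5 times or across 0 when some tumor was left out, most often vehicle_161 (27), X10_111 and X10_95 (21 each) and insulin_8 (19). The 10 that did not were those of Flt1, Vwf and Emcn for X10 against insulin, of Flt1, Vwf, Emcn and Esam for X10 and IGF1 against the others, of Flt1 for X10 against vehicle and against glargine, and of Esam for IGF1 against vehicle. The following crossed 0. Against vehicle, glargine gave -0.071 to 0.072 for Emcn, -0.082 to 0.11 for Flt1, -0.20 to 0.034 for Kdr, -0.026 to 0.14 for Tie1 and -0.0014 to 0.34 for Vwf. Insulin gave -0.19 to 0.0091 for Flt1 and -0.025 to 0.21 for Kdr. X10 gave -0.10 to 0.037 for Cdh5, -0.26 to 0.029 for Kdr, -0.086 to 0.12 for Tie1 and -0.26 to 0.035 for Vwf. IGF1 gave -0.14 to 0.13 for Tek and -0.21 to 0.069 for Vwf. X10 and IGF1 against the others gave -0.030 to 0.064 for Pecam1 and -0.049 to 0.049 for Tie1. X10 against glargine gave -0.098 to 0.068 for Esam, -0.14 to 0.077 for Kdr, -0.19 to 0.043 for Tek and -0.13 to 0.046 for Tie1. X10 against insulin gave -0.13 to 0.034 for Esam and -0.21 to 0.0056 for Tek, and glargine against insulin -0.10 to 0.0031 for Esam, -0.027 to 0.097 for Pecam1 and -0.14 to 0.058 for Tek.

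The number of all genes called, the background of these comparisons, was less stable. Over the alternatives it was 0 to 2 for insulin (0 in the fit reported), 1 for X10 with library size in the model to 24 without the filter on low values (11), and 0 to 1 for IGF1 (1) against vehicle. It was 11 without the filter to 51 with upper quartile scaling for X10 and IGF1 against the others (26), 6 with library size to 31 in a fit of only the groups compared for X10 against insulin (17), 142 without the filter to 364 for X10 against glargine (298), and 0 without the filter or with library size to 22 with a mean RPKM of at least 5 in the F test (17). For glargine against vehicle and against insulin it was 0 under all of these. Leaving out 1 tumor gave 1 without X10_111 or vehicle_174 to 21 without X10_105 for X10 against vehicle, 10 without X10_113 or IGF1_128 to 131 without IGF1_135 for X10 and IGF1 against the others, 5 (several tumors) to 95 without X10_107 for X10 against insulin, 76 without X10_111 to 577 without X10_107 for X10 against glargine and 0 to 110 without IGF1_124 in the F test. For insulin, glargine and IGF1 against vehicle it gave at most 3, 1 and 3.

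Of the receptor-ligand relations, Tek with Angpt1 was past the threshold on log2 values but not on RPKM without log (r = 0.298, permutation test, adjusted p = 0.0710), by rank (0.294), centred within groups (0.303) or with the length measure regressed out (0.288), a setting added once the data had been seen. Without the 2 farthest tumors Flt1 with Vegfb (-0.114) and Tie1 with Angpt1 (0.0532) reversed. Flt1 with Vegfa and with Pgf and Kdr with Vegfa kept sign and call under all alternatives run, with the largest adjusted p, 0.0469, for Flt1 with Pgf on RPKM without log (permutation test). The median pairwise correlation lay between 0.282 and 0.350. No paired analysis was possible because the mouse numbers in the labels differ between all groups. With 10 tumors a group, the SE of a log2 fold change from vehicle was 0.14 to 0.31, which limits the size of a difference that could be seen.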
